A study of Mus musculus with 7 samples.

Results

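The cytosolic ribosomal protein genes were followed on 7 Illumina bead arrays of mouse brain RNA. Members were all probes with a value whose platform symbol is Rpl or Rps followed by a digit, or Rplp0, Rplp1, Rplp2 or Rpsa, without the Rps6k kinases. The platform holds 82 such probes for 64 genes, and 66 probes for 56 genes had a value on every array, of 13304 probes with values in the whole series. The other 16 probes were blank on all arrays, and 8 genes (Rpl14, Rpl22l1, Rpl39l, Rpl3l, Rpl6, Rplp2, Rps23 and Rps23rg1) had no value. The measured probes were 39 for 32 large-subunit genes, 26 for 23 small-subunit genes and 1 for Rps19bp1, which binds the ribosomal protein Rps19 but is not itself part of the ribosome. In 8 genes there were 2 probes and in Rpl23 there were 3, called probe A, B and C in order of falling mean value.

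The untreated control was 1 array of C57BL/6 females, 5 weeks old. The other 6 arrays held females of the same strain and age that had taken Ephedra herba, a herbal drug with sympathomimetic alkaloids, as an oral aqueous extract, with 1 dose daily. The daily dose was 50 or 1250 mg/kg and the course lasted 1, 3 or 10 days. Every pairing of a dose with a day was 1 array, with no replicate, and how many mice gave the RNA of an array is not in the labels, so the p-values describe these arrays and the small number of arrays limits the precision. Values are log intensities, taken to be log2, quantile normalized between arrays, and a change is a difference of such values. The neuronal markers Stmn2 (6.07 to 6.39) and Rbfox3 (6.37 to 6.84) and the oligodendrocyte marker Mbp (8.27 to 8.47 on its brightest probe) were measured on every array, so these markers of the labelled tissue were present. In bulk brain RNA, fewer cells of a type and less RNA per cell cannot be told apart.

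Ribosomal proteins are assembled with ribosomal RNA in the nucleolus into a small subunit, which reads the mRNA, and a large subunit, which joins the amino acids. One copy of nearly every protein is needed per ribosome, and their mRNAs share a 5′ terminal oligopyrimidine start (TOP: a C followed by pyrimidines) that places their translation under mTOR and Larp1. In neurons, ribosomes also serve local protein synthesis in dendrites and axons.

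As a class, the ribosomal protein probes stayed near the control on all 6 treated arrays. The median change of the large-subunit probes was -0.046 and 0.056 after 1 day, -0.041 and -0.068 after 3 days, and -0.060 and -0.036 after 10 days, with 50 mg/kg first in each pair. For the small subunit the medians were -0.024 and 0.104, then -0.083 and -0.076, then -0.108 and 0.054. All probes of the table had medians between -0.036 and 0.003. Both subunits were thus highest on day 1 at 1250 mg/kg, where 23 of 39 large-subunit and 19 of 26 small-subunit probes lay above the control, and both were below the control on the day 3 arrays. These medians depend on the scaling. In the values as deposited, the large-subunit median was 0.187 for 1250 mg/kg on day 1 but -0.323 for 50 mg/kg on day 10, and the small-subunit median on day 3 at 50 mg/kg was -0.459, where all probes had moved by -0.123 (-0.091 at 1250 mg/kg). The small-subunit median on day 10 at 1250 mg/kg turned from 0.054 to -0.194 as deposited and to -0.139 with each array set to one median.

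**Figure D1:**
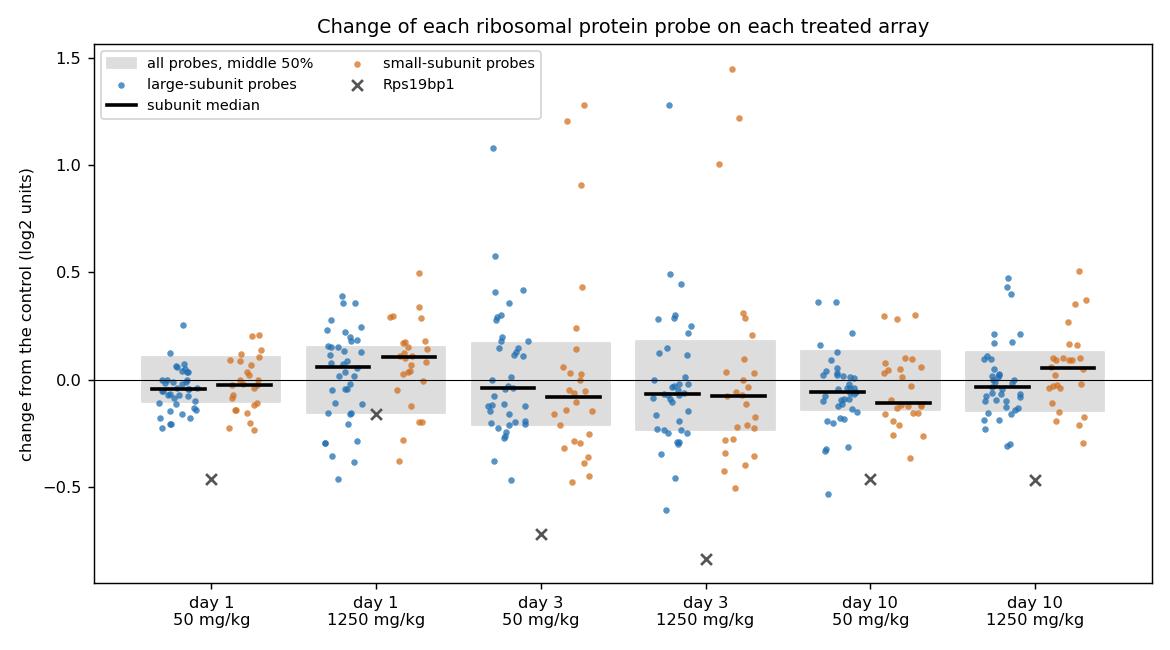
Change from the control in log2 units (vertical axis) for each ribosomal protein probe on the 6 treated arrays (horizontal axis), with large-subunit probes in blue, small-subunit probes in orange, Rps19bp1 as a cross, black bars for the subunit medians and grey boxes for the middle 50% of all probes. Most points lie within or near the grey boxes, and on the 2 day 3 arrays 1 large-subunit and 3 small-subunit probes stand above 0.9.

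**Figure D2:**
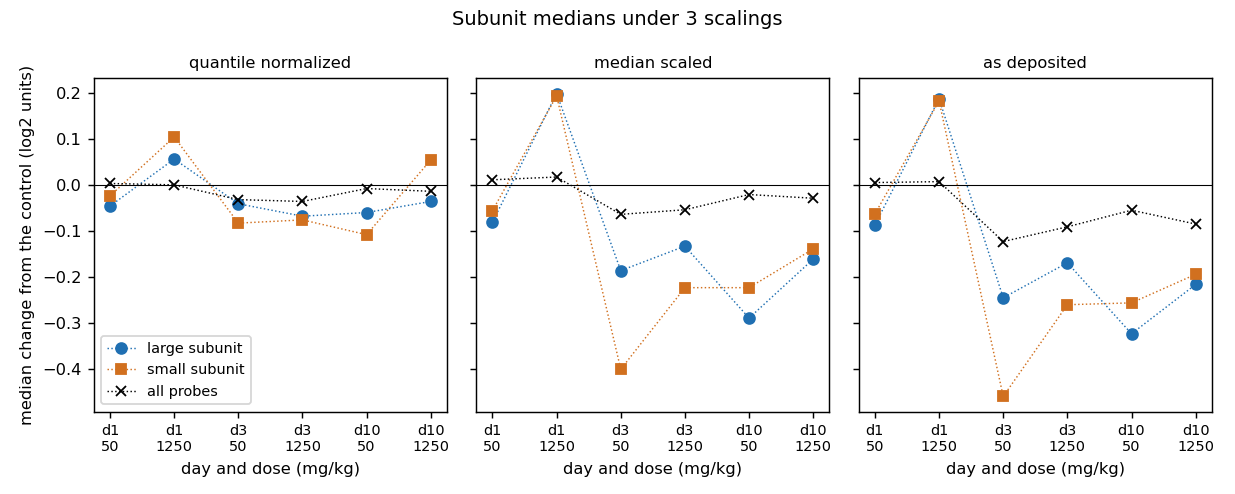
Median change from the control in log2 units (vertical axis) of large-subunit, small-subunit and all probes on each treated array (horizontal axis), in quantile normalized, median scaled and deposited values (3 panels). The subunit medians stay between -0.108 and 0.104 in the first panel and reach from -0.459 to 0.198 in the other 2.

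The members differed from each other in how much they varied. The range of a probe over the 7 arrays had a median of 0.38 over members and 0.43 over all probes. The order turned under the other scalings, with 0.621 and 0.473 as deposited and 0.603 and 0.458 with median scaling. The narrowest ranges were those of Rpl41 (0.077), a very short basic ribosomal peptide, of Rplp1 (0.086), an acidic protein of the stalk that recruits elongation factors, of Rpl23 probe A (0.11), of Rpl38 probe A (0.12) and of Rps12 (0.13). Rpl41 read 8.50 in the control and 8.50, 8.53, 8.51, 8.51, 8.46 and 8.52 on the treated arrays in order of day and dose. Such narrow ranges at the bright end belong to the quantile scaling. The 16 member probes with a mean over 7 had a median range of 0.18 after it and of 0.70 as deposited. For all 140 probes with a mean over 7 these were 0.27 and 0.60. The widest ranges were those of Rps3a1 (1.58), Rpl35a (1.28), Rps3 probe B (1.22) and Rps9 probe B (1.16), followed by Rps19bp1 (0.84), Rpl13a (0.72), Rps25 (0.68) and Rpl37a (0.68).

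For the 4 probes with the widest ranges, the 2 day 3 arrays were the highest of the 7. Day 3 was compared with the mean of days 1 and 10 over the 6 treated arrays, with dose as a block, by limma across all 13304 probes with Benjamini-Hochberg adjustment. Of the members, 8 probes were higher on day 3 (12.1% of 66, where 11.3% of all probes were called higher) and 6 were lower (9.09%, where 8.82% of all probes were). In these normalized values the members' shares were thus close to those of the whole array. The median day 3 difference of the members was -0.032, beside -0.035 for all probes, with -0.019 for the large and -0.070 for the small subunit. In the deposited values 4 members were higher (6.06%, all probes 9.59%) and 13 lower (19.7%, all probes 13.8%), with a median of -0.14 beside -0.083 for all probes. With median scaling 6 were higher (9.09%, all probes 10.4%) and 12 lower (18.2%, all probes 12.1%), with medians of -0.118 and -0.062. Among those 6 were Rpl41 (0.312, limma adjusted p = 0.0488) and Rplp1 (0.353, limma adjusted p = 0.0286), neither called in the normalized values. The share of members called lower was thus above that of all probes under both of these scalings.

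The rises on day 3 were led by 3 small-subunit probes and 1 large-subunit probe. Rps3a1, a small-subunit protein near the exit of the mRNA channel, read 1.44 in the control, 1.46 and 1.73 after 1 day, 2.72 and 2.89 after 3 days, and 1.31 and 1.95 after 10 days, with 50 mg/kg first in each pair. Both day 3 arrays lay above the other 5. The day 3 difference was 1.19 ± 0.11 (SE; limma adjusted p = 3.795e-07). Rpl35a, a large-subunit protein mutated in some human patients with Diamond-Blackfan anaemia, read 4.85 in the control, 4.98 and 5.08 after 1 day, 5.93 and 6.13 after 3 days, and 4.95 and 5.25 after 10 days. It showed the same order of days, with no overlap between day 3 and the other arrays, and a day 3 difference of 0.97 ± 0.10 (limma adjusted p = 6.19e-07).

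Rps3, at the entry of the mRNA channel, was read by a pair of probes that parted on day 3. Rps3 probe B read 3.34 in the control, 3.43 and 3.83 after 1 day, 4.54 and 4.56 after 3 days, and 3.40 and 3.71 after 10 days, a day 3 difference of 0.96 ± 0.11 (limma adjusted p = 2.625e-06). Rps3 probe A read 6.18 in the control, 6.22 and 6.18 after 1 day, 6.02 and 6.07 after 3 days, and 6.02 and 6.24 after 10 days, with a difference of -0.12 ± 0.095 (limma adjusted p = 0.3999). The gene therefore had a rise on one probe and no call on the other. Rps9, which also lies near the mRNA entry, showed a like split. Rps9 probe B read 3.18 in the control, 3.02 and 3.29 after 1 day, 4.09 and 4.19 after 3 days, and 3.05 and 3.53 after 10 days (difference 0.91 ± 0.11, limma adjusted p = 4.676e-06), while Rps9 probe A read between 6.19 and 6.59 on all arrays (difference -0.070 ± 0.095, limma adjusted p = 0.6476). Ribosomal protein genes have many processed pseudogenes and near-identical copies, and which transcripts each probe captures was not tested.

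The promoter stretches below belong to the members with the widest ranges that matched the reference table, shown because they carry the day 3 rise (in Rps3 on probe B alone). Each runs from 150 bases before the RefSeq start to the thirtieth base from it, on GRCm38.p6. Capitals mark CCGGAA (the core of ETS factor sites), CCATCTT (YY1) and a C with at least 4 following pyrimidines that begins within 5 bases of the start. The letters were searched on both strands for the factor motifs and on the transcribed strand for the pyrimidine run.
Rps3a1 (chr3:86142639-86142818, minus strand): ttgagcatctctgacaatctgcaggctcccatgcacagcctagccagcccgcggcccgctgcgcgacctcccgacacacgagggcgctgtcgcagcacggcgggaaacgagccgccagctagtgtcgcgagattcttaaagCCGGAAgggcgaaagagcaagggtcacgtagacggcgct
Rpl35a (chr16:33056332-33056511, plus strand): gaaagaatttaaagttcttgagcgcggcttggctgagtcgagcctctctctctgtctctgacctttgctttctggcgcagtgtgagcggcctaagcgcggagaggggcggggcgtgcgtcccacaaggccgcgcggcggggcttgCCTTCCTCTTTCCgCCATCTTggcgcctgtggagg
Rps3 (chr7:99483680-99483859, minus strand): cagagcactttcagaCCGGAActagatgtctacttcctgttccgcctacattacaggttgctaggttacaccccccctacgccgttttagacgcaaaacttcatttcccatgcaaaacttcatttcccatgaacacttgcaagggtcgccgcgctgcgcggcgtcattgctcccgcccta
Rps3a1 held CCGGAA from 9 bases before its start and Rps3 from 135 bases before, and neither held a pyrimidine run at the start. Rpl35a held a run of 13 bases that begins 5 bases before the annotated start, and CCATCTT from 9 bases after it. The capitals do not overlap each other.

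The other members called higher were large-subunit probes with smaller differences. Rpl10, which joins the large subunit late in its maturation, read 6.39 in the control, 6.16 and 6.47 after 1 day, 6.69 and 6.69 after 3 days, and 6.24 and 6.23 after 10 days (difference 0.41 ± 0.097, limma adjusted p = 0.004666). Rpl39, which lines the exit tunnel of the nascent chain, differed by 0.34 ± 0.092. Rpl27a differed by 0.32 ± 0.10, and Rpl5, which with Rpl11 and the smallest large-subunit RNA can bind Mdm2, by 0.30 ± 0.098. These 4 were not called in the deposited values, where Rpl10 had 0.27 (limma adjusted p = 0.102), nor with median scaling, whereas Rps3a1, Rpl35a, Rps3 probe B and Rps9 probe B were called under every alternative run for them, with lowest differences of 1.14, 0.83, 0.83 and 0.80.

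The 6 members that fell on day 3 were 3 small-subunit probes, 2 large-subunit probes and Rps19bp1. Rps25, a protein used by several viral internal ribosome entry sites, read 5.20 in the control, 5.40 and 5.28 after 1 day, 4.72 and 4.80 after 3 days, and 5.25 and 5.17 after 10 days (difference -0.51 ± 0.098, limma adjusted p = 0.0008431). Both day 3 arrays lay below the other 5. Rps24 probe A read 7.22 in the control, 7.20 and 7.52 after 1 day, 6.94 and 6.999 after 3 days, and 7.50 and 7.39 after 10 days (difference -0.43 ± 0.097, limma adjusted p = 0.003196), again with no overlap. Probe B of that gene, a dim probe with a mean value of 0.40, differed by -0.091 without a call. Rps19bp1 read 2.16 in the control and 1.33 to 2.00 on the treated arrays (difference -0.39 ± 0.11, limma adjusted p = 0.01908). Its probe was dim, with a mean value of 1.72, below the median level of all probes. Rps10, a site of ubiquitin marking when ribosomes collide, differed by -0.33 ± 0.099. Rpl23a, which docks the signal recognition particle, differed by -0.27 ± 0.095, and Rpl13a, known for silencing inflammatory mRNAs when released from the ribosome, by -0.31 ± 0.11 (limma adjusted p = 0.0498). Against day 10 alone, Rps25 and Rps24 probe A were the 2 of these 6 still called lower (3.03% of members, all probes 3.95%).

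**Figure D3:**
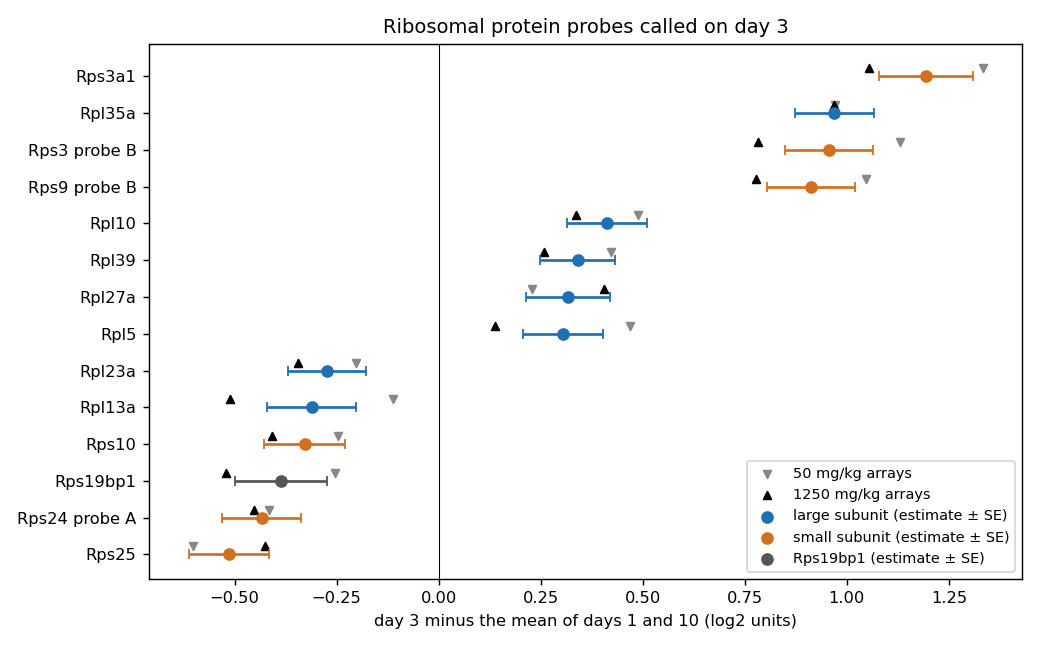
Day 3 minus the mean of days 1 and 10 in log2 units (horizontal axis) for the 14 ribosomal protein probes called by limma, with circles and bars for the estimate ± SE and triangles for the difference at each dose. The 4 upper probes lie at 0.91 to 1.19, the other 10 within 0.51 of zero, and for each probe both doses lie on the same side of zero.

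**Figure D4:**
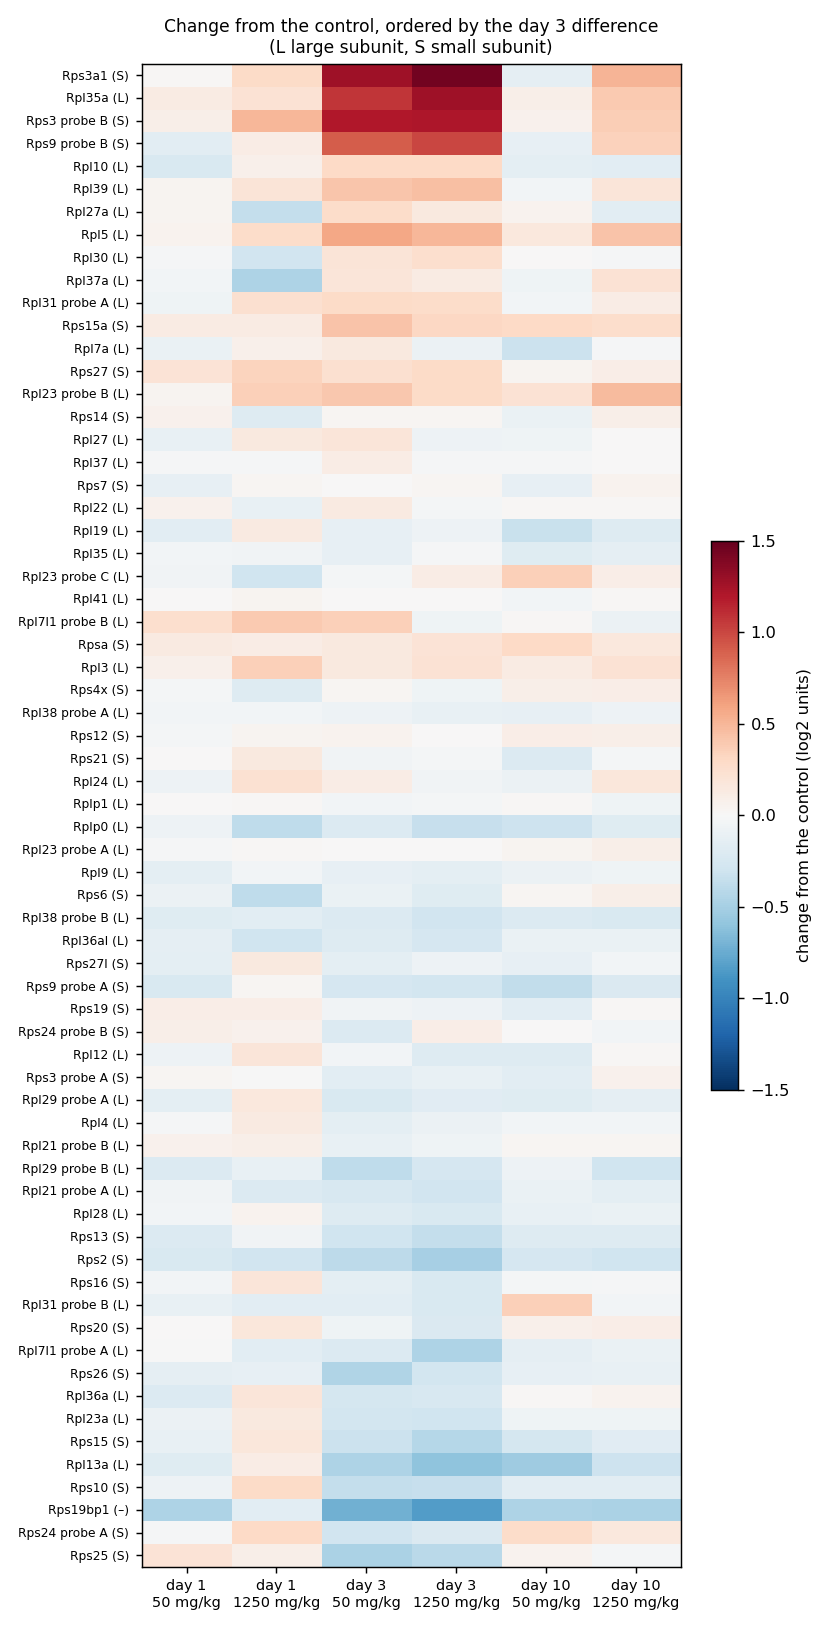
Change from the control in log2 units (colour, red higher and blue lower) of the 66 ribosomal protein probes (lines, ordered by the day 3 difference) on the 6 treated arrays (columns). Rps3a1, Rpl35a, Rps3 probe B and Rps9 probe B are dark red on both day 3 arrays, and Rps19bp1 is blue on all 6.

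Dose did not separate any member by the test. Comparing 1250 with 50 mg/kg over the 3 days, with day as a block, limma called 0 members higher and 0 lower, where it called 0.143% of all probes higher and 0.0% lower. At an unadjusted p under 0.05 there were 5 members (7.58%, against 5.41% of all probes). The median dose difference was 0.048 over members and -0.003 over all probes (0.156 and 0.006 as deposited, 0.157 and 0.007 with median scaling), and 44 of the 66 probes (66.7%) were above zero, against 49.1% of all probes. By day it was 0.101 on day 1, -0.025 on day 3 and 0.034 on day 10, so that day 3 had the opposite sign. Of the members, 15 (22.7%) were higher at 1250 mg/kg on each of the 3 days, against 12.3% of all probes, and 4 (6.1%) were lower on each, against 12.7%. The highest dose differences were those of Rps3a1 (0.36 ± 0.11), Rps9 probe B (0.28 ± 0.10), Rps3 probe B (0.24 ± 0.10), Rpl35a (0.20 ± 0.091) and Rpl19 (0.16 ± 0.094), and the lowest was that of Rpl27a (-0.25 ± 0.097), with limma adjusted p from 0.666 to 0.9272.

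Nor did day 10 differ from day 1 for any member in the normalized values. With dose as a block, limma called 0 members higher and 0 lower, where 1.8% of all probes were called higher and 0.699% lower. At an unadjusted p under 0.05 there were 9 members (13.6%), against 17.9% of all probes. The median difference was -0.040, beside -0.012 for all probes. The highest values were those of Rpl23 probe C (0.40 ± 0.13), Rpl37a (0.33 ± 0.13), Rpl31 probe B (0.30 ± 0.13), Rps6 (0.29 ± 0.11), the small-subunit protein phosphorylated by the S6 kinases, and Rps4x (0.21 ± 0.11). The lowest were those of Rpl13a (-0.39 ± 0.13), Rpl7l1 probe B (-0.35 ± 0.13), Rps10 (-0.26 ± 0.11), Rps15 (-0.25 ± 0.12) and Rpl19 (-0.25 ± 0.12). The call depends on the scaling. As deposited and with median scaling, the same 8 probes were called lower on day 10 (12.1% of members, all probes 3.56% and 2.64%). They were Rps10, Rps9 probe A, Rps21, Rpl19, Rpl13a, Rps15, Rps19 and Rps27, from -0.56 to -0.46 as deposited, with limma adjusted p from 0.0171 to 0.0422, and the members' median was -0.296 and -0.26, where that of all probes was -0.07 and -0.034.

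Against the untreated array, the mean of all 6 treated arrays gave 0 members higher and 0 lower by limma, where 0.0% of all probes were called higher and 0.0% lower. This model takes the spread of the lone control to be that of the treated arrays. The median was -0.019 over members and -0.011 over all probes, and 2 members (Rps2 and Rps19bp1) had an unadjusted p under 0.05 (3.03%, against 2.01% of all probes). Rps2, a small-subunit protein that lines the mRNA entry, read 7.40 in the control and 7.18, 7.12, 7.01, 6.90, 7.14 and 7.10 on the treated arrays (difference -0.33 ± 0.12, limma adjusted p = 0.9996). All 6 treated values lay below the control. Rps19bp1 differed by -0.52 ± 0.22. In the normalized values, 13 members (19.7%) lay below the control on 6 of 6 arrays, against 14.2% of all probes, and 8 (12.1%) lay above it on all 6, against 11.1%. The 13 include both probes of Rpl38, known in the mouse for the selective translation of Hox mRNAs, and the stalk protein Rplp0, and the 8 include Rpl3, Rpl5, Rpsa, Rps15a and Rps27. Of these, Rplp0 and Rpsa were dim probes (mean values 1.35 and 0.31). The side of the control depends on the scaling. On the day 10 arrays, 59 and 56 of 66 members lay below the control as deposited, in place of 41 and 34. For all 13304 probes these were 7946 and 8566 in place of 6820 and 6990. The members' treated minus control median was -0.173 as deposited and -0.14 with median scaling, where all probes had -0.053 and -0.019.

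Single treated arrays were set against the control by the size of the change alone, in the normalized values. Such counts were not made under the other scalings. No member passed 1.5-fold (0.585 in log2 units) on the day 1 arrays, where 0.0977% (50 mg/kg) and 0.504% (1250 mg/kg) of all probes were that much higher and 0.173% and 0.504% that much lower. On day 3, Rps3a1, Rpl35a, Rps3 probe B and Rps9 probe B were at least 1.5-fold higher at both doses (6.06% of members, against 5.37% and 6.16% of all probes). Rps19bp1 was at least 1.5-fold lower at both doses, and Rpl13a at 1250 mg/kg (all probes 2.08% and 2.52%). More members fell that far as deposited. There the lower quartile of the small-subunit changes on day 3 at 50 mg/kg was -0.619, beside -0.321 for all probes. With median scaling these quartiles were -0.56 and -0.262. No member passed on day 10 in the normalized values, where 0.902% and 1.4% of all probes did so upward and 0.526% and 0.616% downward. This depends on the scaling. The lowest member change on day 10 at 50 mg/kg was -0.66 as deposited and -0.63 with median scaling, both past 1.5-fold.

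At 1.2-fold, again in the normalized values alone, the counts of members spread over more genes. On day 1 at 50 mg/kg there were 0 higher (all probes 5.1%) and 1 lower, Rps19bp1 (1.52%, all probes 5.43%). At 1250 mg/kg on day 1 there were 9 higher (13.6%, all probes 11.0%) and 8 lower (12.1%, all probes 12.1%), and 6 of those 8 were of the large subunit, among them Rpl37a, Rpl27a, Rpl30 and Rplp0. On day 3 at 50 mg/kg there were 12 higher (18.2%, all probes 17.2%) and 11 lower (16.7%, all probes 19.8%), and at 1250 mg/kg 11 higher (16.7%, all probes 18.2%) and 14 lower (21.2%, all probes 21.6%). On day 10 at 50 mg/kg there were 5 higher (7.58%, all probes 11.0%) and 7 lower (10.6%, all probes 9.99%), and at 1250 mg/kg 7 higher (10.6%, all probes 11.1%) and 4 lower (6.06%, all probes 10.7%). The members' shares were below those of all probes in both directions on day 1 at 50 mg/kg. On the other arrays most shares were close to those of all probes, and the differences were not tested.

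Probes for one gene did not always share a sign. Some opposite signs came from differences near zero, as for dose in Rpl38 (-0.03 and 0.005). The share of such genes over the whole array was not counted. Of the 9 genes with several probes, 4 had day 3 differences of opposite sign, 4 had dose differences and 4 had day 10 against day 1 differences of opposite sign, and 5 had opposite signs against the control. Rpl31, beside the exit tunnel, had 0.22 on probe A and -0.21 on probe B on day 3, neither called. Rpl23, which can bind and inhibit Mdm2, had ranges of 0.11, 0.47 and 0.66 on probes A, B and C. Both probes of Rpl38 were below the control on all 6 treated arrays, and those of Rpl29 on all but day 1 at 1250 mg/kg, where probe A was above it, with day 3 differences between -0.141 and -0.019.

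**Figure D5:**
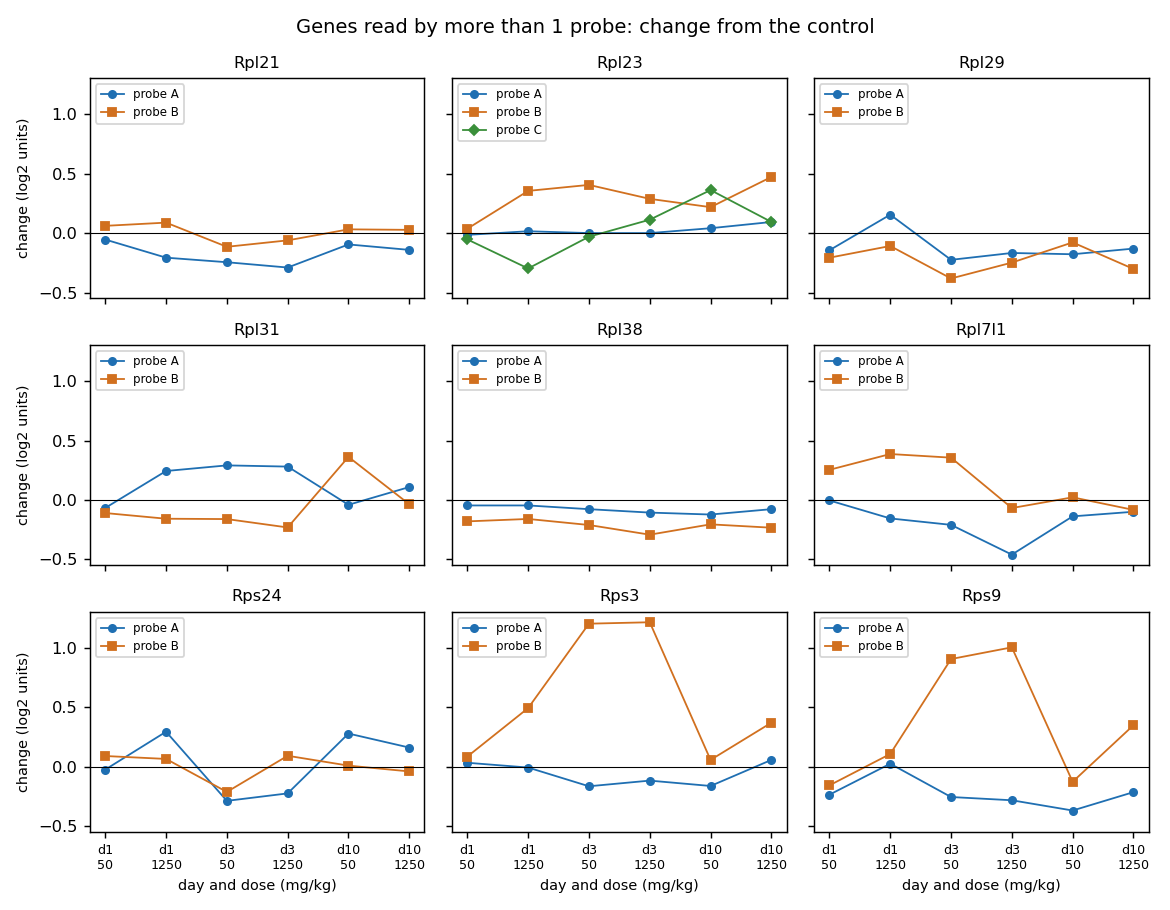
Change from the control in log2 units (vertical axis) on the 6 treated arrays in order of day and dose (horizontal axis) for the 9 genes read by more than 1 probe (panels; lines join the arrays for one probe). Rps3 probe B and Rps9 probe B rise above 0.9 on day 3 while probe A of each gene stays below the control there, and both probes of Rpl38 lie below the control on every array.

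The stalk and its base, Rpsa and the paralog pairs with both genes measured had no call in the normalized values. Rplp1 read 8.50 to 8.58 on all 7 arrays, and its day 3 difference of -0.031 in the normalized values became 0.353 with median scaling (limma adjusted p = 0.0286). Rplp0, the base of the stalk, read 1.57 in the control and 1.49, 1.19, 1.37, 1.23, 1.26 and 1.39 on the treated arrays, all below the control (treated minus control -0.25 ± 0.16, limma adjusted p = 0.9996). Rpsa, also known as the laminin receptor, read 0.16 in the control and 0.27 to 0.46 on the treated arrays, none of them below it. Both Rplp0 and Rpsa were dim probes, with mean values of 1.35 and 0.31, which limits what their small changes can show. Of the paralog pairs both measured, Rps27 and the p53-induced Rps27l had day 3 differences of 0.091 and -0.069, and Rpl36a and Rpl36al had -0.26 and -0.069, with no call on any of the 4. Rpl36a was called lower on day 3 as deposited (-0.407 ± 0.118, limma adjusted p = 0.0146) and with median scaling (-0.385, limma adjusted p = 0.0155). Rpl22, whose paralog Rpl22l1 was blank, differed by 0.054, and Rpl3, whose muscle paralog Rpl3l was blank, by -0.0095. Rpl39, whose paralog Rpl39l was also blank, was called higher on day 3 (0.34, limma adjusted p = 0.0123).

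A TOP-like start was more common among these genes than among protein-coding genes at large. RefSeq promoter windows of GRCm38.p6, 250 bases before to 50 from the start, were found for 48 of the 56 genes (57 windows, since some genes have several starts). A C with at least 4 following pyrimidines began within 5 bases of the start in 38.6% of them, against 18.6% of 21255 protein-coding windows and 18.3% of all 32841. At the start base itself the shares were 15.8% and 2.2% of protein-coding windows. Within the stretch from 150 bases before the start to 30 from it, CCGGAA on either strand was in 42.1% of member windows and 14.8% of protein-coding windows, CCATCTT in 10.5% and 3.6%, and TATAA in 17.5% and 13.8%. A pair of genes with a narrow range on the normalized scale are shown beside the day 3 genes above, with the same capitals. For Rpl23 this holds on probe A alone (0.11), and its probes B and C had ranges of 0.47 and 0.66.
Rpl41 (chr10:128549139-128549318, minus strand): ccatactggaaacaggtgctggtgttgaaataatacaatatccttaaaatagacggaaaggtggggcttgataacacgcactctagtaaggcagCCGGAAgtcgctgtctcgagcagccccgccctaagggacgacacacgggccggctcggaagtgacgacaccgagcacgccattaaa
Rpl23 (chr11:97782410-97782589, minus strand): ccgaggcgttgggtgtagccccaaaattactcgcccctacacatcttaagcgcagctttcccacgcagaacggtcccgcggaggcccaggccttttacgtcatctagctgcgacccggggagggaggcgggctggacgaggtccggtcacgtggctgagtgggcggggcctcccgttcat
Rpl41 held CCGGAA from 56 bases before its start, as Rps3a1 and Rps3 did at other places, and Rpl23 held none of the letters searched. A match describes the letters and not a bound factor.

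On day 3, where 11.3% of all probes were called higher and 8.82% lower, other genes of translation were called too. Among 29 probes for 16 elongation and other TOP genes, 5 were called higher (17.2%) and 1 lower (3.45%), with a median difference of -0.014. Pabpc1, the cytoplasmic poly(A)-binding protein, differed by 1.46 ± 0.12 (limma adjusted p = 8.28e-08), and both probes of Eef1b2, an exchange factor of elongation, by 1.34 and 0.78. Hnrnpa1, a splicing factor with a TOP mRNA, differed by -0.58 ± 0.10. Of 44 probes for 30 initiation factors, 8 were called higher (18.2%), among them Eif3k (0.77 ± 0.11), a subunit of the initiation factor that binds the small subunit, and 2 lower (4.55%). The list's median was -0.055, near the -0.035 of all probes. Of 44 probes for 32 ribosome biogenesis genes, 9 were higher (20.5%) and 2 lower (4.55%) with a median of 0.028, among them Gnl2 (0.76 ± 0.11), a nucleolar GTPase of large-subunit maturation. Polr1a, the largest subunit of RNA polymerase I, was higher on 1 probe (0.71) and lower on another (-0.39). None of 7 probes for regulators of TOP translation was called, and Fau, whose product is processed to a small-subunit protein, fell by 0.30 ± 0.091. For dose, none of these probes was called, and for day 10 against day 1 the nucleolar chaperone Npm1, which is on the elongation and on the biogenesis list, rose by 0.59 ± 0.11 (limma adjusted p = 0.008).

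The mitochondrial ribosomal proteins, made for the separate ribosome of that organelle, gave 4 probes higher (4.6%) and 16 lower (18.4%) of 87 on day 3, with a median of -0.163, where all probes had 11.3%, 8.82% and -0.035. The cytosolic members gave 8 and 6 of 66 with a median of -0.032. The difference between these lists was not tested.

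Markers of other tissues also differed between the arrays. On day 3, 7 of 8 liver marker probes were lower (median -1.40), 2 of 3 erythrocyte probes were lower (median -0.84), and 1 of 5 cerebellar probes was higher (median 0.35). Of 6 neuronal probes 3 were higher and 1 lower (median 0.28), and of 7 astrocyte probes 2 were higher (median 0.22). The liver list's summed level (log2 of the summed intensities) was 7.40 in the control, 7.32 and 8.22 after 1 day, 7.80 and 7.86 after 3 days, and 7.63 and 7.81 after 10 days. Most of that sum was Ttr (7.26 to 7.87), which the choroid plexus also makes, and the other liver probes read from -0.81 to 4.85. For dose, 7 of the 8 liver probes were higher at 1250 mg/kg (median 1.35). For day 10 against day 1 all 5 cerebellar probes were higher (median 1.60), and their summed level ran from 4.29 on day 1 at 50 mg/kg to 6.96 on day 10 at 1250 mg/kg. Both pituitary probes, Prl and Gh, were lower on day 10 (median -4.18), with a summed level of 1.55 in the control, 4.21 and 4.79 after 1 day, 3.97 and 0.42 after 3 days, and 0.25 on both day 10 arrays. Treated minus control, the median was -1.447 over 3 heart muscle probes, with 0 of them higher, and -0.438 over 4 microglial probes, with 1 higher. The olfactory bulb and choroid plexus lists had medians of 0.066 and -0.066 in that comparison. The part of tissue composition in the values of the ribosomal proteins was not tested.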

How the data were processed

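Gene expression in brain was measured on 7 Illumina bead arrays with biotin-labelled cRNA. The authors deposited log2 values, blank for 12393 of 25697 probes, and the base is stated by no label: base 2 was assumed, and another base would scale every difference by one constant. Not given in the sources used here were the background step, the software and the rule for blanks. A further 7 columns of another table match no sample label and were not used. Values were quantile normalized with limma 3.58.1 in R 4.3.3, and the linear models (lmFit, eBayes with an intensity trend, two-sided, Benjamini-Hochberg adjustment over 13304 probes, threshold 0.05) had dose or day as a block, except treated against control. Residual degrees of freedom were 2, and 5 for the 7-array model, with 18.0 and 5.75 prior degrees of freedom. The day 3 model was run on simulated arrays with independent noise and a change set in a small share of the probes. That run does not test the choice of scaling or changes as widespread as those on day 3. Alternatives were the deposited and median-scaled values, only the brighter probes (those above the median level), 1 probe a gene, no trend, no block and arrays left out. All 66 member probes matched a RefSeq gene and transcript.

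Members, lists and tests were chosen with earlier results of these data known, and the 3 factor motifs after the data were seen. Named with values were called members, the 5 highest and lowest in each model, the widest and narrowest ranges, stalk proteins, paralogs and genes whose probes disagree, and at most 4 called genes of another list.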

Additional observations from a re-analysis of the deposited data

Results flagged for a closer look

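In some members both arrays of one day lay above the control and both arrays of another day lay below it, and they are given here for that pattern, as differences of mean changes with limma's adjusted p for those 2 days. Because the members were picked for such a gap between those 2 days, the adjusted p-values are no separate support for it. How many of all probes show the same pattern was not counted. Limma called 5 of these differences. Day 3 minus day 10 was 0.451 for Rpl10 (adjusted p = 0.0112), and day 10 minus day 3 was 0.476 for Rps24 probe A (adjusted p = 0.0077). Day 1 minus day 3 was 0.581 for Rps25 (adjusted p = 0.00103). Day 3 minus day 1 was 0.405 for Rpl37a (adjusted p = 0.032) and 0.372 for Rpl30 (adjusted p = 0.0345). The others were not called. Day 10 minus day 3 was 0.285 for Rpl36a, 0.227 for Rps20, 0.201 for Rps6 and 0.118 for Rpl21 probe B, with adjusted p from 0.138 to 0.59. Day 1 minus day 3 was 0.167 for Rps19 and 0.163 for Rpl21 probe B (adjusted p = 0.26 and 0.352). Day 10 minus day 1 was 0.403 for Rpl23 probe C, 0.293 for Rps6 and 0.209 for Rps4x (adjusted p = 0.105, 0.1745 and 0.3043).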

How the results depend on the processing

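Scaling was the choice that moved most values. Each pair below gives the deposited values first and median scaling second. The members' median for day 10 against day 1 was -0.296 and -0.26, with 8 and 8 members called lower in place of 0 (all probes 474 and 351 in place of 93). On day 3, 13 and 12 members were lower in place of 6, with those 6 among them, and 4 were higher as deposited in place of 8. Over all probes, 1836 and 1610 were lower in place of 1174 and 1276 were higher as deposited in place of 1500. Large-subunit medians were 0.187 and 0.198 for 1250 mg/kg after 1 day, -0.245 and -0.186 for 50 mg/kg after 3 days, -0.323 and -0.289 for 50 mg/kg after 10 days, and -0.216 and -0.161 for 1250 mg/kg after 10 days. Small-subunit medians were -0.459 and -0.4 for 50 mg/kg, then -0.26 and -0.223 for 1250 mg/kg, after 3 days. After 10 days they were -0.256 and -0.223, then -0.194 and -0.139. The median range was 0.621 and 0.603. The treated against control median was -0.173 as deposited. Against day 10 alone, 2 members were lower. With the pyrimidine run held to the start base, 15.8% of windows had it. The cause of these shifts was not tested, beyond the fact that quantile scaling gives equal ranks equal values.

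Of the other summary results and settings, 121 kept their direction and side of the threshold, or moved by less than the spread between arrays. Day 3 calls of single probes held in 89 repeats and were lost, with the same direction, in 22. Leaving out the arrays of one dose for the day models was not run, since no residual degree of freedom remains. The labels give no replicate numbers, so the blocks were dose and day alone.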
